A study of Mus musculus with 16 samples.

Results

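Immediate early genes are switched on within minutes of a stimulus, before any new protein has to be made, and many of their products are transcription factors that set the next wave of expression. A set of 10, picked by symbol, was followed here in ventricular myocytes: Fos, Fosb, Jun, Junb, Jund, Egr1, Atf3, Ier2, Btg2 and Myc. All 10 of 10 were found in the count table of 35682 genes, and all 10 were among the 10945 genes that passed the filter on low counts. The cells came from 8 mice of the line B3AR-Tg, whose name refers to a transgene of the beta-3 adrenergic receptor, and from 8 wild-type (WT) mice. All 16 had undergone TAC (transverse aortic constriction, surgery that narrows the aorta and so loads the left ventricle) 9 weeks before collection, so that no unloaded heart is among the samples. The age beyond adult, the sex and the strain of the mice, and the promoter and species of the transgene, are not given in the sources used here. Myocytes were isolated by perfusing the heart on a Langendorff apparatus and then stood plated for 1 hour before RNA extraction, per the labels' protocols.

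In the heart, FOS and JUN proteins pair through leucine zippers to form AP-1, which binds DNA in response to stretch, neurohormones and stress kinases. EGR1 is a zinc finger factor, MYC is a driver of growth and ribosome production, and ATF3 is a stress-induced partner of the same zipper family. These transcripts are known to be short-lived, and they are also known to be induced while tissue is being digested. All libraries came from isolated cells, so that the level in the intact heart was not measured.

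The animals' libraries held between 5985335 and 14365864 counts. Defining markers of cardiomyocytes were high in every library: the 8 markers summed to between 62477 and 85368 CPM (counts relative to library size, scaled by TMM factors) in WT and to between 68004 and 105182 CPM in B3AR-Tg. Of these 8 markers 1 passed the test, Ryr2, the calcium release channel (log2 fold change 0.46, edgeR adjusted p = 0.0359). Markers of other cells were present at low levels. The 8 fibroblast markers summed to 45.9 to 189.8 CPM in WT and 12.01 to 65.1 CPM in B3AR-Tg, with 0 of the 8 at 0 in all libraries. Of the 7 tested, 5 passed the test as lower in B3AR-Tg (71.4%, beside 2.88% of all tested genes). The 8 endothelial markers summed to 87.3 to 137 CPM in WT and 43.5 to 164 CPM in B3AR-Tg, and 2 of 8 (25%) passed as lower. The 8 mural markers summed to 90.6 to 165 CPM in WT and 48.6 to 145 CPM in B3AR-Tg, and the 8 leukocyte markers to 5.81 to 16.5 and 2.12 to 8.43 CPM. None of their 7 and 3 tested genes passed, and 3 and 1 had an unadjusted edgeR p under 0.05, as did 19.3% of all tested genes. Log2 fold changes above 0 were found for 0 of 7 fibroblast, 0 of 8 endothelial, 1 of 7 mural (Acta2) and 0 of 3 leukocyte markers. Over all tested genes 51.1% were above 0. Immediate early genes are transcribed in all of these cells. In such bulk samples fewer cells of a type and less RNA per cell cannot be told apart.

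Promoter sequences of 3 of the genes are shown because they carry letters that stimulus-responsive factors recognise. RefSeq promoters (build GRCm38.p6) were found for 7 of the 10 genes, all except Egr1, Ier2 and Myc. Each line gives the 250 bases before the annotated start, 5′ to 3′ on the strand of the gene. Capitals mark the CRE letters TGACGTCA, to which CREB and ATF proteins bind, their shorter core TGACG, the EGR site GCGNGGGCG, and the TATA box TATAAA. The Fos promoter is at chr12:85473640-85473889 on the plus strand, that of Fosb at chr7:19310046-19310295 on the minus strand, and that of Btg2 at chr1:134079156-134079405 on the minus strand.
Fos: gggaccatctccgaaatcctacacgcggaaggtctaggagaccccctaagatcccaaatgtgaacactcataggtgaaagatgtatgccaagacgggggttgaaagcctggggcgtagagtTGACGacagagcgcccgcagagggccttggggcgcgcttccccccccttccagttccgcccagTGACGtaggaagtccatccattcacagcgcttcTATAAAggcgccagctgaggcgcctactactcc
Fosb: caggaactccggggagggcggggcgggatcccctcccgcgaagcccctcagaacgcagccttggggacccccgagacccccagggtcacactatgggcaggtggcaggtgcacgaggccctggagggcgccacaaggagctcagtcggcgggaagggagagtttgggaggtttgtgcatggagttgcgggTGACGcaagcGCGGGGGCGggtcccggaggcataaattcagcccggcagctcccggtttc
Btg2: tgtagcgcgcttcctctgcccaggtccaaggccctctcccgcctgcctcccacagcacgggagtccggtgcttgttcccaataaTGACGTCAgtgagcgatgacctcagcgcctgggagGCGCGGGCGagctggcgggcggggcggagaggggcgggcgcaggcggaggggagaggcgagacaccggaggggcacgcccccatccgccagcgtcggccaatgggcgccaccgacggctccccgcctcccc

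Both strands were searched. The full CRE was found in 1 of the 7 promoters, that of Btg2 at positions -166 to -159, and in 1.55% of the 32851 promoters of the table. The EGR site was found in 2 of the 7, Btg2 (-131 to -123) and Fosb (-50 to -42), against 4.7% of all promoters. The CRE core, which overlaps the full CRE and was added after the promoters had been read, was found in 5 of the 7 against 17.8% of all: at 2 places in Fos (-129 to -125 and -66 to -62), and also in Fosb (-60 to -56), Junb (-106 to -102), Atf3 (-7 to -3, on the other strand) and Btg2, there inside the full CRE. The TATA box, also added then, was found in Fos alone among the 7 (-33 to -28), against 12.4%. The AP-1 site TGANTCA (6.75% of all promoters), the E-box CACGTG (6.02%) and the CArG box of serum response factor (1.47%) were found in 0 of the 7 windows. The shares over all promoters were not matched for base content. The windows of Fos, Fosb and Btg2 held 58.4%, 68.8% and 73.2% G and C. These matches describe letters in a window and not the binding of a factor. Sites outside these 250 bases, and all sites of Egr1, Ier2 and Myc, were not searched.

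No immediate early gene passed the test between genotypes. At an adjusted p under 0.05, 0 of the 10 differed in edgeR's quasi-likelihood test, where 4.91% of all tested genes did, 2.03% higher and 2.88% lower in B3AR-Tg (222 and 315 genes, and 346 and 165 when libraries were scaled by their size only). Without adjustment 3 of the 10 (Fos, Atf3 and Btg2) had a p under 0.05, all with the higher level in B3AR-Tg, against 19.3% of all genes in either direction and 8.71% in that one. Of the other tools DESeq2 called 1 (Fos) and limma voom 0, where they called 840 of 13113 and 706 of 10945 tested genes. Of the 10 fold changes 9 were above 0, the sign of a higher level in B3AR-Tg, against 51.1% of all tested genes. Because the 10 genes varied together across animals, as given below, these signs are not independent. The median log2 fold change of the 10 was 0.43, beside 0.01 over all genes. For 0 of the 10 did all B3AR-Tg animals lie above all WT animals, a pattern that 0.201% of tested genes showed.

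**Figure D1:**
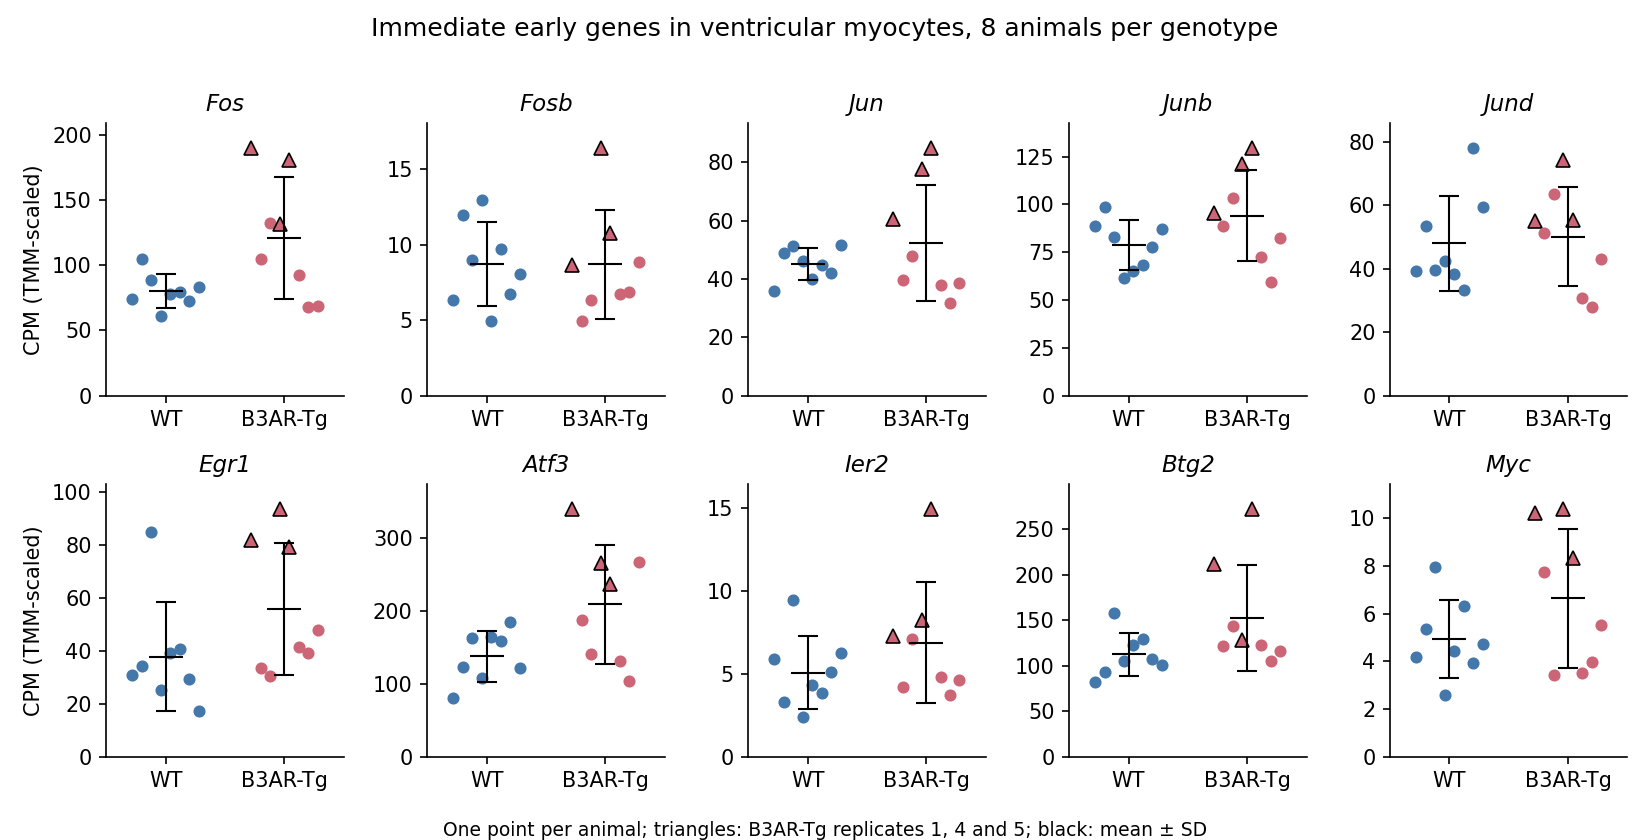
Level of the 10 genes in each animal, in TMM-scaled CPM on linear axes that start at 0, with WT at the left and B3AR-Tg at the right of each panel, the mean as a black bar and ± SD as whiskers. The triangles, B3AR-Tg replicates 1, 4 and 5, stand high in most panels, and the genotypes overlap in all 10.

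Among the FOS subunits, which bind DNA only when paired with a JUN protein, Fos (ENSMUSG00000021250) came closest to the threshold. WT animals ranged from 61.3 to 104.9 CPM around a median of 78.7, and B3AR-Tg animals from 67.6 to 189.7 CPM around 118. The WT animals formed a narrow band that 4 of 8 B3AR-Tg animals exceeded, while 2 B3AR-Tg animals (replicates 7 and 8) lay below the WT median. Mean levels of 80.2 ± 12.8 CPM (WT) and 121 ± 46.6 CPM (B3AR-Tg; SD, n = 8 each) gave a log2 fold change of 0.59 ± 0.19 (± standard error here and below, edgeR adjusted p = 0.0725). Fos passed under DESeq2 (adjusted p = 0.0324), without B3AR-Tg replicate 7 (edgeR adjusted p = 0.0254) and without B3AR-Tg replicate 8 (0.0412). Over 27 alternatives its adjusted p ran from 0.0254 to 0.550.

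Fosb (ENSMUSG00000003545), the close relative of Fos whose short splice form persists in cells, was the one member with a fold change below 0. WT animals ranged from 4.97 to 12.9 CPM (median 8.54) and B3AR-Tg animals from 4.95 to 16.4 CPM (median 7.74). The ranges overlapped almost wholly, with 4 of 8 B3AR-Tg animals above the WT median. Its log2 fold change was -0.04 ± 0.22 (edgeR adjusted p = 0.956), and the sign turned when libraries were scaled by their size only (0.044). Between 38 and 145 counts per library lie behind these levels, and the short splice form cannot be read from a table of genes.

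The JUN subunits can pair with FOS proteins, with ATF proteins or with each other. For Jun (ENSMUSG00000052684) the WT range was 35.9 to 51.8 CPM with a median of 45.6, and the B3AR-Tg range 31.7 to 84.9 CPM with a median of 43.7. The B3AR-Tg median was thus the lower one, while the B3AR-Tg mean, 52.3 ± 19.9 CPM, was above the 45.1 ± 5.59 CPM of WT. Replicates 1, 4 and 5 of B3AR-Tg stood above every WT animal and the other 5 lay at or below 47.8 CPM. The log2 fold change was 0.21 ± 0.17 (edgeR adjusted p = 0.540).

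Junb (ENSMUSG00000052837), which often counteracts JUN in growth control, ranged from 61.6 to 98.6 CPM in WT (median 80.4) and from 59.6 to 129.5 CPM in B3AR-Tg (median 92.3). Here B3AR-Tg replicates 3, 4 and 5 were above all WT animals, and the log2 fold change was 0.25 ± 0.14 (edgeR adjusted p = 0.332). Jund (ENSMUSG00000071076), the member of the family that is expressed most steadily in resting cells, ranged from 33.4 to 78.0 CPM in WT (median 40.96) and from 28.03 to 74.2 CPM in B3AR-Tg (median 53.2). Its highest animal was WT replicate 7, and the log2 fold change was 0.06 ± 0.19 (edgeR adjusted p = 0.906).

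Atf3 (ENSMUSG00000026628), a zipper factor that joins JUN proteins and is induced by many stresses, had the largest fold change of the 10. WT animals ranged from 80.1 to 185 CPM around a median of 140.9, and B3AR-Tg animals from 103.8 to 339.9 CPM around 212. Of the 8 B3AR-Tg animals, 5 were above the highest WT animal and 2 were below the WT median. The log2 fold change was 0.60 ± 0.21 (edgeR adjusted p = 0.109), and it passed only without B3AR-Tg replicate 7 (0.0388) among 27 alternatives.

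Egr1 (ENSMUSG00000038418), the zinc finger factor, had a wide spread in both genotypes. WT animals ranged from 17.4 to 84.8 CPM around a median of 32.5, and B3AR-Tg animals from 30.3 to 93.4 CPM around 44.6. WT replicate 3 held the 84.8 CPM and the next WT animal 40.7 CPM, while B3AR-Tg replicates 1, 4 and 5 held 81.7, 93.4 and 79.2 CPM and the next B3AR-Tg animal 47.8 CPM. The log2 fold change was 0.57 ± 0.28 (edgeR adjusted p = 0.273). Without WT replicate 3 it was 0.85 and passed (adjusted p = 0.0396), so that 1 library decides this call.

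Btg2 (ENSMUSG00000020423), an antiproliferative protein that speeds the removal of poly(A) tails from mRNA, ranged from 81.7 to 157 CPM in WT (median 106) and from 104.9 to 272 CPM in B3AR-Tg (median 126). In B3AR-Tg 7 of 8 animals were above the WT median, but only replicates 1 and 5 exceeded the WT range. Its log2 fold change was 0.44 ± 0.18 (edgeR adjusted p = 0.165).

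Ier2 (ENSMUSG00000053560), a small nuclear protein of the early response, and Myc (ENSMUSG00000022346) were, with Fosb, the members with the fewest counts. Ier2 ranged from 2.41 to 9.49 CPM in WT (median 4.72) and from 3.74 to 14.96 CPM in B3AR-Tg (median 5.95), from 26 to 163 counts per library. Myc ranged from 2.59 to 7.95 CPM in WT (median 4.58) and from 3.44 to 10.4 CPM in B3AR-Tg (median 6.66), from 27 to 153 counts. The ranges overlapped for both, with 1 B3AR-Tg animal above all WT animals for Ier2 and 3 for Myc. Their log2 fold changes were 0.44 ± 0.29 and 0.43 ± 0.26 (edgeR adjusted p = 0.435 and 0.387). For both genes counting error alone gives a coefficient of variation of 15.1% (Ier2) and 15.2% (Myc) in WT, beside 43.4% (Ier2) and 32.9% (Myc) observed.

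Levels were compared between genes only per length, as CPM per kilobase of annotated exon. In WT the order ran from Atf3 (64.0 CPM per kilobase) through Btg2 (40.9), Junb (34.3), Fos (34.1), Jund (28.8), Jun (14.1), Egr1 (8.40), Ier2 (3.34) and Myc (1.82) to Fosb (1.40). Btg2, Junb, Fos and Jund formed a level group, since no neighbouring pair among them differed by more than 1 SD of its log2 ratio over the 8 animals, and neither did Myc and Fosb. Atf3 exceeded Btg2 in 8 of 8 WT animals. In B3AR-Tg the order was the same except that Fos (51.4) stood before Junb (40.9), a difference within their spread, and Junb then exceeded Jund in 8 of 8 animals. With the longest transcript as the length, Junb passed Btg2 and Fosb passed Myc in WT, in both cases within the spread.

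The same few animals were high for most of the genes. Each animal's deviation from the mean over all animals was averaged over the 10 genes on the log2 CPM scale. B3AR-Tg replicates 5, 4 and 1 stood at 0.76, 0.68 and 0.59, while the other 13 animals lay between -0.45 (B3AR-Tg replicate 7) and 0.26 (WT replicate 3). Replicate 5 was the highest of all animals for 4 genes, replicate 4 for 3 and replicate 1 for 2, and the remaining gene, Jund, was highest in WT replicate 7. All 3 animals were above the WT median for 10 of 10 genes, whereas B3AR-Tg replicate 7 was above it for 1 of 10 and replicate 6 for 4 of 10.

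**Figure D2:**
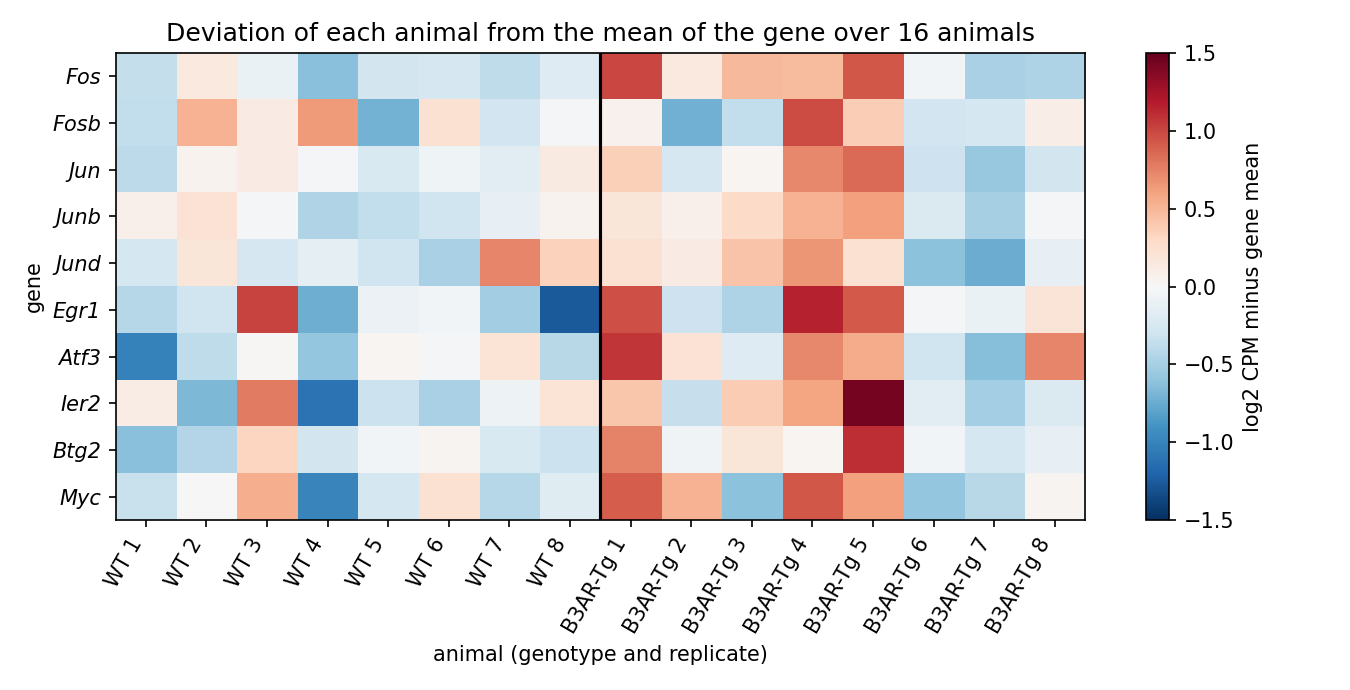
Deviation of log2 CPM from the mean of each gene (rows) in each of the 16 animals (columns, WT left of the line), red for higher and blue for lower. B3AR-Tg replicates 1, 4 and 5 are red in nearly every row, with mean deviations of 0.59 to 0.76.

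Other measures of these 3 libraries are given for comparison. Replicate 4 had the smallest library of the series (5985335 counts) and replicate 1 the largest (14365864), while replicate 5 had 9564234. Mitochondrially encoded genes took 20.3%, 22.9% and 20.0% of the counts of replicates 1, 4 and 5, within the 18.8% to 27.5% of the others. The non-myocyte marker level, the mean log2 deviation of the fibroblast, endothelial, mural and leukocyte markers, was -0.28, 0.21 and -0.62, against -1.45 to 0.12 in the other B3AR-Tg animals and -0.0043 to 0.90 in WT. Nppa, the atrial natriuretic peptide gene that marks load, was at 5.76, 24.4 and 22.1 CPM in them and at 15.3 to 120.3 CPM in the other B3AR-Tg animals, while WT animals held 78.4 to 1349 CPM. The 19 heat shock and isolation stress genes had mean log2 deviations of 0.76, 0.19 and 0.11 in replicates 1, 4 and 5, against -0.40 to 0.15 in the others. Hspa1a, an inducible heat shock gene named after its values were seen, was at 315 CPM in replicate 1 and 112 CPM in replicate 4 but at 50.3 CPM in replicate 5, beside 22.3 to 93.0 CPM in all others. The part of these measures in the levels of the 10 genes was not tested.

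Without these 3 animals, an alternative chosen after their values had been seen, 5 of the 10 log2 fold changes were above 0 and their median was 0.01. Atf3 then stood at 0.28 and Fos at 0.22, while Jun (-0.20), Jund (-0.14), Ier2 (-0.045) and Myc (-0.011) turned below 0 and Fosb reached -0.37. The number of members past the threshold was 0 with and without them. Taking the highest animals out of a group lowers its fold changes by construction, and these values show only how much of the difference those animals carried. Leaving out any 1 animal kept 8 of the 10 genes at the same sign. Jund turned without B3AR-Tg replicate 4 (-0.038), and Fosb turned in 6 of the 16 cases. The median of the 10 was lowest, 0.23, without B3AR-Tg replicate 5. The non-myocyte marker level as a covariate gave 0 calls and a median of 0.35, with 10 of 10 above 0. That level differed between the genotypes, so this fit cannot fully separate it from genotype.

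**Figure D3:**
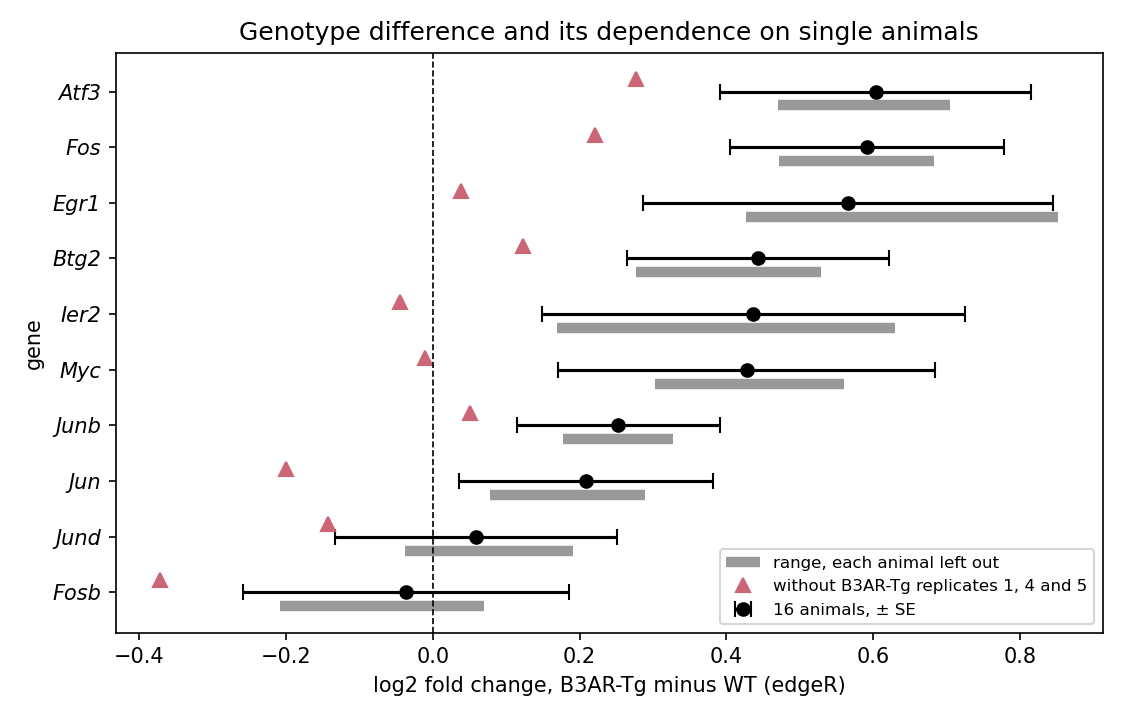
Log2 fold change of each gene, B3AR-Tg minus WT, from edgeR with ± 1 standard error (black), the range when each animal is left out in turn (grey bars) and the value without B3AR-Tg replicates 1, 4 and 5 (triangles). The 16-animal values run from -0.04 to 0.60, and 5 of the 10 triangles lie above 0.

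The spread between animals was then compared. The edgeR biological coefficient of variation of the 10 genes lay between 0.20 (Junb) and 0.38 (Egr1) with a median of 0.28, and all 10 were above the median of all tested genes, 0.18. Egr1 and Ier2 varied more than 93.7% of all tested genes and Junb more than 57.6%. The genes compared were not matched for level, and Ier2 averaged only 44.1 counts in WT libraries. For Fos the observed coefficient of variation was 15.98% in WT and 38.5% in B3AR-Tg where counting alone gives 3.73% and 2.73%.

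All 10 genes had a larger mean absolute deviation from the group median in B3AR-Tg than in WT, against 46.5% of all tested genes. The 10 varied together across animals, as given below, and so are not independent observations. For Fos it was 0.47 in B3AR-Tg and 0.16 in WT on the log2 scale (exact permutation p = 0.0188, two-sided, adjusted p = 0.147 over the 10 tests), and for Jun 0.42 and 0.14 (exact permutation p = 0.0294, adjusted p = 0.147). No gene passed after adjustment, and 2 of 10 were under 0.05 without it, where 1.58% of all genes were so with the wider spread in B3AR-Tg. On another measure Egr1 went the other way, with a standard deviation of log2 CPM of 0.66 in WT and 0.63 in B3AR-Tg, although its mean absolute deviation was the larger in B3AR-Tg (0.52 and 0.44). Without B3AR-Tg replicates 1, 4 and 5 the deviation was larger in B3AR-Tg for 5 of 10 genes, and without any 1 animal for 7 to 10.

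The genes varied together across animals. After the mean of each genotype was removed, Pearson's r was above 0 for 45 of the 45 pairs, with a median of 0.55 over the 16 animals, where the median over all pairs of tested genes was -0.00 and 3.6% of them reached the same value. All genes of a library share its scaling and its preparation. By permutation within genotype with adjustment over the 45 pairs, 14 pairs passed by Pearson's r and 4 of them also by Spearman's rho. These 4 were Fos with Jun (r = 0.79, permutation adjusted p = 0.0303, rho = 0.81, adjusted p = 0.0379), Fos with Junb (r = 0.77, adjusted p = 0.0246, rho = 0.77, adjusted p = 0.0379), Egr1 with Myc (r = 0.74, adjusted p = 0.0246, rho = 0.74, adjusted p = 0.0379) and Junb with Ier2 (r = 0.71, adjusted p = 0.0246, rho = 0.71, adjusted p = 0.0431), in each case by permutation.

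Their unadjusted permutation p-values for r were 0.0054, 0.0023, 0.0027 and 0.0028, in the same order. Without the 2 animals farthest from the median of the first gene, r was 0.75, 0.78, 0.62 and 0.56 for these pairs, and over the 14 pairs it ran from 0.27 (Ier2 with Btg2) to 0.78. Fos and Fosb, the 2 FOS subunits, gave r = 0.27 (permutation adjusted p = 0.410) and did not pass. Jund with Egr1 had the weakest relation (r = 0.01, permutation adjusted p = 0.964).

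Within B3AR-Tg all 45 pairs were above 0, with a median r of 0.64, and within WT 34 of the 45 were, with a median of 0.20. Jun with Junb gave 0.92 in B3AR-Tg and 0.19 in WT, while Fos with Junb gave 0.79 and 0.72 and Egr1 with Myc 0.79 and 0.70. Whether the genotypes differ in these relations was not tested. The count of passing pairs depended on single animals: it was 0 without B3AR-Tg replicate 5, without replicate 6 or without replicate 7, 7 without WT replicate 3, and between 10 and 16 without any other. The correlations themselves moved little: the median r was 0.51, 0.52 and 0.48 without B3AR-Tg replicates 5, 6 and 7, with 44 of 45 pairs above 0 each time, and it lay between 0.48 and 0.57 whichever 1 animal was left out. Without B3AR-Tg replicates 1, 4 and 5 together it was 0, with 31 of 45 pairs above 0 and a median r of 0.31 over the remaining 13 animals.

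**Figure D4:**
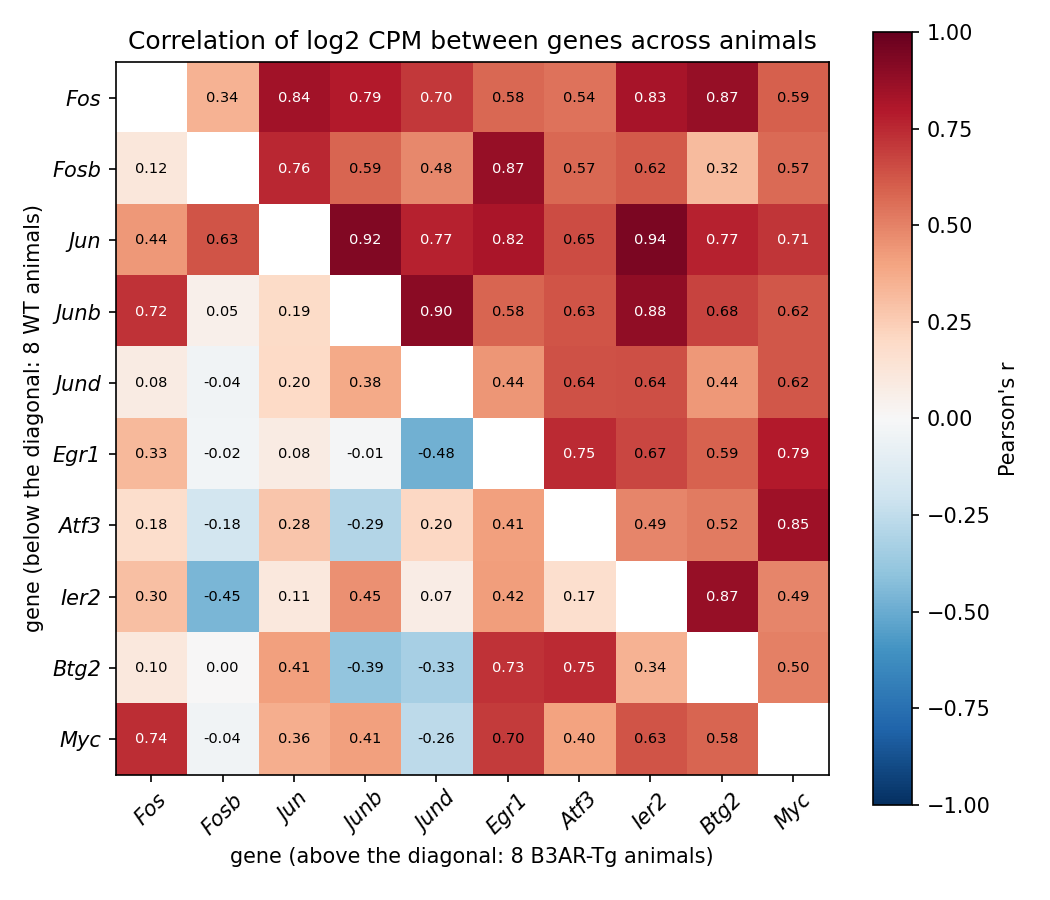
Pearson's r of log2 CPM between the genes, above the diagonal across 8 B3AR-Tg animals and below it across 8 WT animals. The upper triangle is red throughout, with a median of 0.64, and the lower triangle is mixed, with a median of 0.20.

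With the genotype means removed, Jun followed the shared profile most closely, with r = 0.93 to the mean standardised profile of the 10 genes, and Fosb least (0.55). Each member is part of that profile, which raises its r, while genes outside the list are not. With the other members alone the median r was 0.67 for Jun and 0.29 for Fosb. Among the 10935 tested genes outside the list, the 10 with the highest r to that profile over the 16 animals were Slc39a10 (0.90), Zfp36 (0.86), Pcdhga8 (0.86), Arid5a (0.81), Rassf1 (0.79), Tfe3 (0.78), Rbm14 (0.77), Kat14 (0.76), Csrnp1 (0.76) and Ddx17 (0.75). Zfp36 encodes an mRNA-destabilising protein and is itself a rapid-response gene, and Slc39a10 encodes a zinc importer. Zfp36 averaged 26.2 ± 4.08 CPM in WT animals and 32.3 ± 13.3 CPM in B3AR-Tg animals (SD, n = 8 each), a log2 fold change of 0.30 that did not pass (edgeR adjusted p = 0.412). These values are a description and were not tested.

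The other members of the AP-1 family gave no call. Of 18 listed, 13 were tested and 0 passed, beside 4.91% of all tested genes. An unadjusted edgeR p under 0.05 was also found for 0, beside 19.3%. Of the 13 log2 fold changes 10 were above 0, beside 51.1%, with a median of 0.12. The 3 with the highest level per length were Atf4, the effector of the integrated stress response (log2 fold change 0.24, edgeR adjusted p = 0.389), Atf6, a sensor of the endoplasmic reticulum (-0.02, adjusted p = 0.931), and Mafk, a small MAF protein (-0.39, adjusted p = 0.284). Fosl1, Jdp2, Batf, Batf2 and Batf3 did not pass the filter on low counts.

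Of 58 symbols listed as other rapid-response genes 49 were tested, of which 3 rose, 3 fell and 43 did not pass, with a median log2 fold change of 0.11. These are 6.12% in each direction, beside 2.03% higher and 2.88% lower over all tested genes, and the list as such was not tested. The orphan nuclear receptors Nr4a1 and Nr4a3 rose from 20.1 ± 4.27 to 38.6 ± 13.4 CPM and from 20.8 ± 5.601 to 40.3 ± 14.9 CPM (log2 fold changes 0.93 and 0.95, edgeR adjusted p = 0.0100 and 0.0159). Csrnp1, a nuclear protein induced by AXIN, rose by 0.65 (adjusted p = 0.0362). Dusp6, the phosphatase that switches ERK off in the cytoplasm, fell from 16.4 ± 5.24 to 6.09 ± 2.70 CPM (-1.45, adjusted p = 0.00425), and Btg3, a relative of Btg2, fell from 4.38 ± 1.102 to 1.85 ± 0.614 CPM (-1.25, adjusted p = 0.00590). For Dusp6 and Btg3 all B3AR-Tg animals lay below all WT animals, as for 0.247% of tested genes. Sgk1, a kinase induced by serum and corticosteroids, fell by 0.59 on the log2 scale (adjusted p = 0.0384).

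With the non-myocyte marker level as a covariate Nr4a1 (edgeR adjusted p = 0.0353) and Nr4a3 (0.0309) passed. Dusp6 (-0.63, adjusted p = 0.368), Btg3 (-1.20, 0.141), Sgk1 (-0.22, 0.661) and Csrnp1 (0.71, 0.231) did not. That level itself differed between genotypes, from -0.0043 to 0.90 in WT and from -1.45 to 0.21 in B3AR-Tg. The fit therefore cannot fully separate it from genotype, and a call lost with it, here, above and below, has no assigned cause. Without B3AR-Tg replicates 1, 4 and 5, Nr4a1, Dusp6, Btg3 and Sgk1 passed and Nr4a3 (adjusted p = 0.149) and Csrnp1 (0.317) did not. In B3AR-Tg replicates 1, 4 and 5 Nr4a1 stood at 20.4, 55.6 and 49.9 CPM and Nr4a3 at 60.6, 49.1 and 49.7 CPM. Replicate 1, with the highest Atf3 and Fos, thus had the lowest Nr4a1 of its group, whereas Nr4a3 was higher in these 3 than in any other of the 16 animals. Dusp1, a nuclear phosphatase of the same early response, gave 25.7 ± 5.85 CPM for WT against 23.6 ± 6.58 CPM for B3AR-Tg and did not pass (-0.14, edgeR adjusted p = 0.658), a gene named after its values were seen.

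Upstream of these genes, stress and growth kinases act on factors such as SRF, ELK, CREB and MEF2. Of 37 listed symbols 33 were tested, and 2 rose and 0 fell, 6.06% called beside 4.91% of all tested genes. Rps6ka5, a nuclear kinase that phosphorylates CREB and histone H3, rose from 9.62 ± 1.17 to 15.8 ± 3.59 CPM (log2 fold change 0.72, edgeR adjusted p = 0.00577). Mef2d, a muscle transcription factor that activates Jun, rose from 37.4 ± 6.68 to 49.7 ± 7.45 CPM (0.41, adjusted p = 0.0378). Both were above the WT median in 8 of 8 B3AR-Tg animals. With the non-myocyte covariate Rps6ka5 (log2 fold change 0.63, adjusted p = 0.144) and Mef2d (0.64, adjusted p = 0.0767) did not pass, and without B3AR-Tg replicates 1, 4 and 5 Mef2d did not (0.32, adjusted p = 0.231).

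In the MYC network 17 of 22 listed symbols were tested and 1 passed, 5.88% beside 4.91% of all tested genes. Npm1, a nucleolar protein of ribosome assembly, fell from 116 ± 13.2 to 93.5 ± 10.03 CPM (log2 fold change -0.32, edgeR adjusted p = 0.0332), and it did not pass with the non-myocyte covariate (-0.31, adjusted p = 0.257) or without B3AR-Tg replicates 1, 4 and 5 (-0.29, adjusted p = 0.121), with a fold change of nearly the same size. All 19 heat shock and isolation stress genes were tested and 0 passed, beside 4.91% of all tested genes. Without adjustment 3 had an edgeR p under 0.05, beside 19.3%: Hmox1 (log2 fold change 1.13), Ddit4 (-1.12) and Hspb8 (-0.34). Hmox1 and Ddit4 were named after their values were seen, and Hspa1a, given above by animal, stood at 0.86 (edgeR adjusted p = 0.308). Of the 19 log2 fold changes 14 were above 0, with a median of 0.08. The most abundant of these genes per length were Hspa8 (2305 ± 238 CPM in WT and 2278 ± 554 in B3AR-Tg), Hsp90ab1 (922 ± 83.3 and 952 ± 138) and Hspb8 (535 ± 83.4 and 423 ± 119.8), with edgeR adjusted p-values of 0.962, 0.829 and 0.218.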

How the data were processed

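RNA of ventricular myocytes of 16 mice was read as stranded total RNA libraries made from 500 ng after removal of ribosomal RNA, per the labels' protocols. The authors deposited raw counts, whole numbers by gene and animal, without normalization. Salmon and the build GRCm39 are named in the submitters' processing notes, with no role or version, and the annotation, strand setting and rounding are not given in the sources used here. Columns were matched to animals by the names in the titles.

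Counts were tested with edgeR 4.0.16 (quasi-likelihood F test, genotype only, filterByExpr with minimum count 10 and minimum total count 15, TMM factors, R 4.3.3), with Benjamini-Hochberg adjustment over 10945 genes and a threshold of 0.05, two-sided. Alternatives used DESeq2 1.42.0, limma 3.58.1 voom, other scalings, no filter, covariates, a replicate block and the removal of animals. Log2 CPM used a prior count of 2. Spread was tested over all 12870 splits of the animals, and correlations by 100000 permutations within genotype (20000 in alternatives). The edgeR fit, the spread test and the correlation test were tested on simulated data. The spread differences simulated were larger than those of the 10 genes. How often the spread test finds differences of the observed size was therefore not examined. Library pairs within a genotype differed by a chi-square per gene of at least 5.82, so each library was kept.

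Lengths came from GENCODE M21 (GRCm38) and promoters from RefSeq (GRCm38.p6), both matched by gene and not by position. The members and lists were chosen with earlier results of these data known. All 10 members are named; of each other list, up to 6 genes past the threshold or otherwise the 3 most abundant per length. At 5985335 to 14365864 counts per library, counting error gave coefficients of variation from 2.06% (Atf3) to 15.2% (Myc). The labels call the samples biological replicates and name no batch.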

Additional observations from a re-analysis of the deposited data

Results flagged for a closer look

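The highest and the lowest animal of each of the 20 groups (10 genes, 2 genotypes) were compared with their nearest neighbour against Dixon's 95% critical value for 8 animals, set as a share of the group's range. On the log2(CPM + 0.1) scale 0 animals stood farther away, and on the CPM scale 2 did, where chance would give about 1 on either scale. On the CPM scale Egr1 in WT replicate 3, at 84.8 CPM with the next animal at 40.7 CPM, had a gap of 0.654 of the range. Ier2 in B3AR-Tg replicate 5, at 14.96 CPM with the next at 8.28 CPM, had a gap of 0.595.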

How the results depend on the processing

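The count of 0 members past the threshold was kept by every scaling, the missing filter, voom, the covariates and the replicate block, and became 1 under DESeq2, with a range of 0 to 2 when 1 animal was left out (1 without WT replicate 3 or B3AR-Tg replicate 8, 2 without B3AR-Tg replicate 7). Of all genes 537 passed, against 230 with the replicate block, 21 with the non-myocyte covariate, 840 under DESeq2, 182 without B3AR-Tg replicates 1, 4 and 5, and 272 to 675 without 1 animal, with the lowest counts without WT replicate 4 (272), B3AR-Tg replicate 5 (277) and B3AR-Tg replicate 8 (345). The replicate numbers belong to different animals and did not pair them: deviations of same-numbered animals correlated between -0.22 and 0.09, and 0 of 8 WT animals correlated best with their own number. Scaling by library size only made 346 of 511 called genes higher, 67.7% against 41.3%. The count of 14 correlated pairs ran from 0 to 16 without 1 animal (median r 0.48 to 0.57, with 44 or 45 of 45 pairs above 0) and was 0 without B3AR-Tg replicates 1, 4 and 5 (0.31, 31 of 45); the 0 genes with a different spread stayed at 0 in each alternative run. Fosb changed sign with library size only (0.044), the animal number (0.026) or the non-myocyte level (0.49) as a covariate, and voom (0.0027), with -0.21 to 0.070 when 1 animal was left out. Jund ran from -0.038 to 0.19 in that case, and without B3AR-Tg replicates 1, 4 and 5 Jun (-0.20), Jund (-0.14), Ier2 (-0.045) and Myc (-0.011) turned. The cause of these changes was not tested, and the non-myocyte covariate overlaps with genotype. Among the 10 genes counting error was largest for Ier2, Myc and Fosb, and in WT it was smaller than the observed coefficient of variation of each.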
